A study of Mus musculus with 8 samples.

Results

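The costimulatory and checkpoint molecules described here are 10 genes, Cd40, Cd80, Cd83, Cd86, Cd274, Pdcd1lg2, Ctla4, Havcr2, Lgals9 and Vsir, out of 25572 genes in the table. They were chosen by gene symbol, for their part in costimulation and in the PD-1, CTLA-4, TIM-3 and VISTA checkpoints, and each had a single row. RNA was sequenced from neutrophils sorted by FACS from tumours into a CD54-positive fraction (ICAM1-high) and a CD54-negative fraction (ICAM1-low), with 4 libraries each, numbered 1, 2, 3 and 5 in both fractions. Both fractions came from C57/B6 mice bearing PyMT-N tumours, a tumour name that the labels do not explain further, and no treatment, age or number of mice is given. CD54 is another name for ICAM1, an adhesion molecule of leukocytes, endothelium and epithelium that binds beta-2 integrins. Each library was made from 150 pg of total RNA with a kit meant for single cells.

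Costimulatory molecules are surface proteins on antigen-presenting cells that decide whether a T cell that has met its antigen is activated or restrained. CD80 and CD86 bind the activating receptor CD28 and, with higher affinity, the inhibitory receptor CTLA-4. CD40 receives the activating signal of CD40 ligand, and CD83 marks mature antigen-presenting cells and keeps CD86 and MHC class II on their surface. PD-L1 (Cd274) and PD-L2 (Pdcd1lg2) bind the inhibitory receptor PD-1, TIM-3 (Havcr2) is an inhibitory receptor for which galectin-9 (Lgals9) is a reported ligand, and VISTA (Vsir) is an inhibitory B7 family member of myeloid and T cells. In tumours, PD-L1 on myeloid cells, neutrophils included, is studied as a brake on T cells.

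Promoter sequences from RefSeq (GRCm38.p6) were at hand for 7 of the 10 genes, and 3 are shown: Ctla4, which had the largest difference between the fractions, and the pair Havcr2 and Lgals9, a receptor and its reported ligand that are compared as a ratio below. Each run is the 250 bases before the annotated transcription start, 5′ to 3′ on the gene's own strand. Capitals mark matches to the motifs named below.
Ctla4 (chr1:60908775-60909024, plus strand): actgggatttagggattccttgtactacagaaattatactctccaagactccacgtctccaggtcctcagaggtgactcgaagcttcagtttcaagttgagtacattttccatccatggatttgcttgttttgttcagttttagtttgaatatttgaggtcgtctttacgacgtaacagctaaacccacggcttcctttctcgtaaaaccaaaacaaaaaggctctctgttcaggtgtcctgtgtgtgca
Havcr2 (chr11:46454681-46454930, plus strand): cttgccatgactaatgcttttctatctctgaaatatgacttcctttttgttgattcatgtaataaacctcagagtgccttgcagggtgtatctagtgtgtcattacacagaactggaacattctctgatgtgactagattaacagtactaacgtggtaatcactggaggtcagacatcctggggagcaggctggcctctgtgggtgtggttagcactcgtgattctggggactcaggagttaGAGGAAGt
Lgals9 (chr11:78984925-78985174, minus strand): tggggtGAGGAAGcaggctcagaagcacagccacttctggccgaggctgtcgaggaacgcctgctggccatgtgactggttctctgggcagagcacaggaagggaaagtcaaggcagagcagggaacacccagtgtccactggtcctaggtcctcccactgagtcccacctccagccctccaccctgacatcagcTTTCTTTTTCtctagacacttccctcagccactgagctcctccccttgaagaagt
Both strands were searched for the interferon response element core (GAAA, any 2 bases, GAAA), the interferon-gamma element GAS (TTCNNNGAA), the PU.1 core (GAGGAAG) and the NF-kB consensus. The Lgals9 promoter held the interferon response element core on the opposite strand at 55 to 46 bases before the start, a match found in 2.98% of 32851 promoters of the same length. It also held a PU.1 core, as did the Havcr2 promoter at 8 to 2 bases before its start, and 10.6% of all promoters held this motif. None of these motifs was found in the window shown for Ctla4. Neither GAS nor the NF-kB consensus was found in the 3 windows shown. Of the promoters at hand but not shown, that of Pdcd1lg2 held the NF-kB consensus at 244 to 235 bases before its start. This match was found in 7.25% of all promoters. A match is a run of letters and no evidence of binding.

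Library totals ran from 15940328 to 21825096 estimated counts. A count of 3, taken as the floor of detection for counting error only, stood for 0.121 to 0.263 CPM (counts relative to the scaled library size). Icam1, the gene of the sorted protein, stood at 48.2, 58.4, 42.4 and 122 CPM in CD54-positive replicates 1, 2, 3 and 5, and at 18.7, 9.25 and 4.31 CPM in CD54-negative replicates 1, 2 and 3. The library labelled CD54-negative replicate 5 held 138 CPM, above every CD54-positive library. In TPM, a level that corrects for gene length, it held 77.1. CD54-positive replicates 1, 2, 3 and 5 held 31.3, 45.1, 37.2 and 80.4 TPM, so there it was below replicate 5. CD54-negative replicates 1, 2 and 3 held 13.9, 6.93 and 3.11 TPM, so on both scales its Icam1 mRNA stood apart from its labelled fraction. The sort was on surface protein, of which mRNA is an indirect measure. The log2 fold changes of the 10 genes, their ratios, levels and likeness are also given without it.

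The sums of neutrophil markers were lower and those of macrophage markers higher in CD54-positive libraries, and the other lists did not all move the same way. All 12 neutrophil markers had counts in all 8 libraries, but Ly6g was below the floor in CD54-positive replicate 1 (0.095 against 0.143 CPM). It stood at 3.99, 1.98 and 1.66 CPM in CD54-positive replicates 2, 3 and 5, and at 25.9 to 41.1 CPM in CD54-negative libraries. Of the 12 markers 6 were lower in CD54-positive libraries. The sum of all 12 was 1499 to 4398 CPM there, against 6623 to 30995 CPM in CD54-negative libraries. Of 12 macrophage markers 10 were higher, with a sum of 5322 to 15953 CPM in CD54-positive and 638 to 1135 CPM in CD54-negative libraries (adjusted p under 0.05, edgeR). In each CD54-positive library the macrophage sum was above the neutrophil sum, and in each CD54-negative library it was below. These sums are of different genes and do not measure cell numbers. Leaving out 1 library gave 0 to 8 neutrophil and 0 to 11 macrophage markers past the threshold, both 0 without CD54-negative replicate 1. Of 7 monocyte markers, Ccr2 and Cx3cr1 were higher (log2 fold change 3.81 and 3.06) and Ly6c2 was lower (-2.60; adjusted p under 0.05, edgeR). The sum of the 7, mostly Fn1, was 2938 to 4608 CPM in CD54-positive and 8400 to 14863 CPM in CD54-negative libraries. None of the tested NK cell, B cell, epithelial and tumour, or fibroblast and endothelial markers was past the threshold by edgeR. Dendritic cell markers summed to 266 to 542 CPM in CD54-positive and 101 to 227 CPM in CD54-negative libraries, with none of 8 tested past the threshold in either direction by edgeR (4 higher and 0 lower at an unadjusted p under 0.05; 2 higher by DESeq2, 1 by limma-voom). Itgax, an integrin that macrophages also express, made up much of the sums in CD54-positive libraries. Without it, a choice made after seeing the data, the other 10 markers summed to 85.9, 171, 66.3 and 65.9 CPM in CD54-positive replicates 1, 2, 3 and 5, and to 71.7, 96.6 and 125 CPM in CD54-negative replicates 1, 2 and 3 and 34.9 CPM in the library labelled CD54-negative replicate 5, so that the groups overlapped. In each CD54-negative library 3 to 6 of the 11 markers were at 0, and Flt3, the growth factor receptor of dendritic cells, was at 0 in all 4. None was at 0 in a CD54-positive library, although Flt3 was only at the floor, 0.143 CPM, in CD54-positive replicate 1. Fscn1, an actin-bundling protein of mature dendritic cells, had a log2 fold change of -1.12 (adjusted p = 0.334 by edgeR). It stood at 61.4, 63.7 and 103 CPM in CD54-negative replicates 1, 2 and 3 and 31.4 CPM in the library labelled CD54-negative replicate 5. That was most of each CD54-negative sum without Itgax. In CD54-positive replicates 1, 2, 3 and 5 it held 40.6, 44.1, 23.9 and 11.2 CPM. The overlap of the sums without Itgax therefore depends on Fscn1. In bulk RNA, fewer cells of a type and less RNA per cell cannot be told apart, and the part of these cells in the differences below was not tested.

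**Figure D1:**
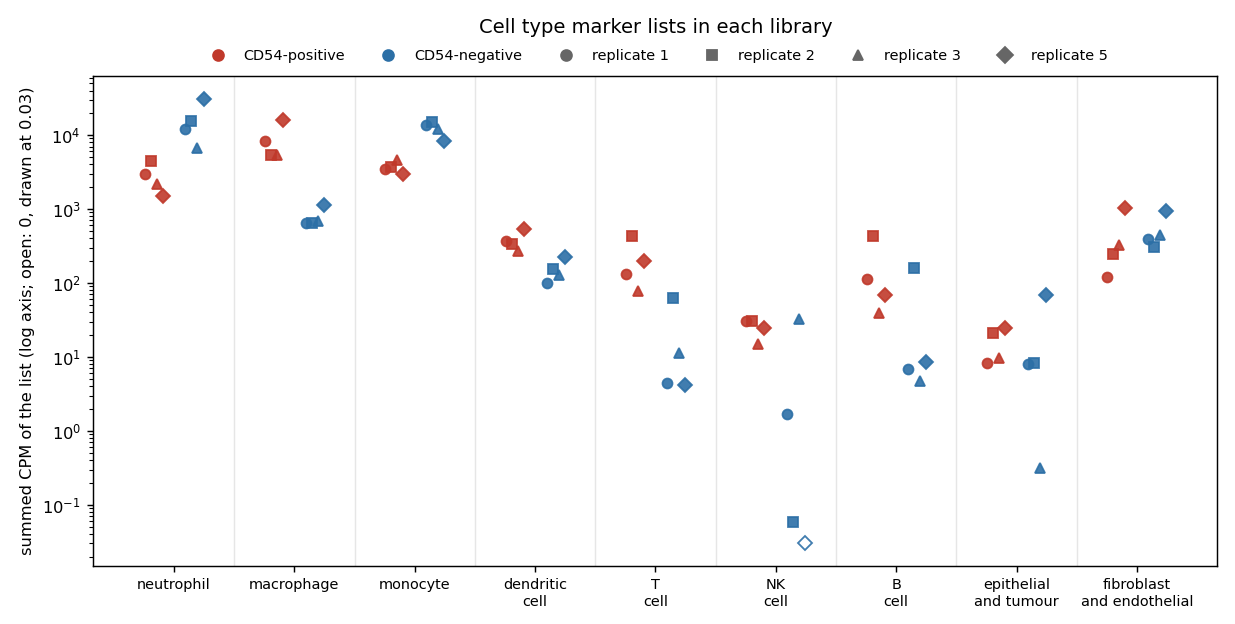
Summed CPM (log axis) of 9 lists of cell type markers in each library, CD54-positive in red and CD54-negative in blue, with a symbol for each replicate number and an open symbol for a sum of 0. Macrophage marker sums are 5322 CPM or more in CD54-positive libraries and 1135 CPM or less in CD54-negative libraries, and neutrophil marker sums run the other way.

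Of the 10 genes, 2 rose in CD54-positive libraries, Cd83 and Ctla4, and none fell. Among all 13575 genes tested, 1.22% were higher and 0.273% were lower by the same test. At an unadjusted p under 0.05, 4 of the 10 were higher (Cd83, Cd86, Ctla4 and Havcr2) and none was lower, beside 7.96% of all genes higher and 8.96% lower. DESeq2 and limma-voom also called none of the 10 lower, but DESeq2 gave no p-value for Cd80. Every CD54-positive library was above every CD54-negative one for 3 genes, Cd83, Cd86 and Ctla4, as it was for 7.51% of all genes tested. All 10 passed the filter on low counts. Ctla4 passed it through the CD54-positive libraries, where it was higher, and Pdcd1lg2 with over 10 counts in 3 of them and in the library labelled CD54-negative replicate 5, so the counts over these genes support nothing by themselves. The median log2 fold change was 1.21 over the 10 genes and -0.07 over all genes tested. The median of the 10 genes was 2.13, with all 10 above 0, without the library labelled CD54-negative replicate 5, it was 2.55 with limma-voom, and it was 0.247 over the 9 genes that passed a filter of 10 CPM in 4 libraries.

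**Figure D2:**
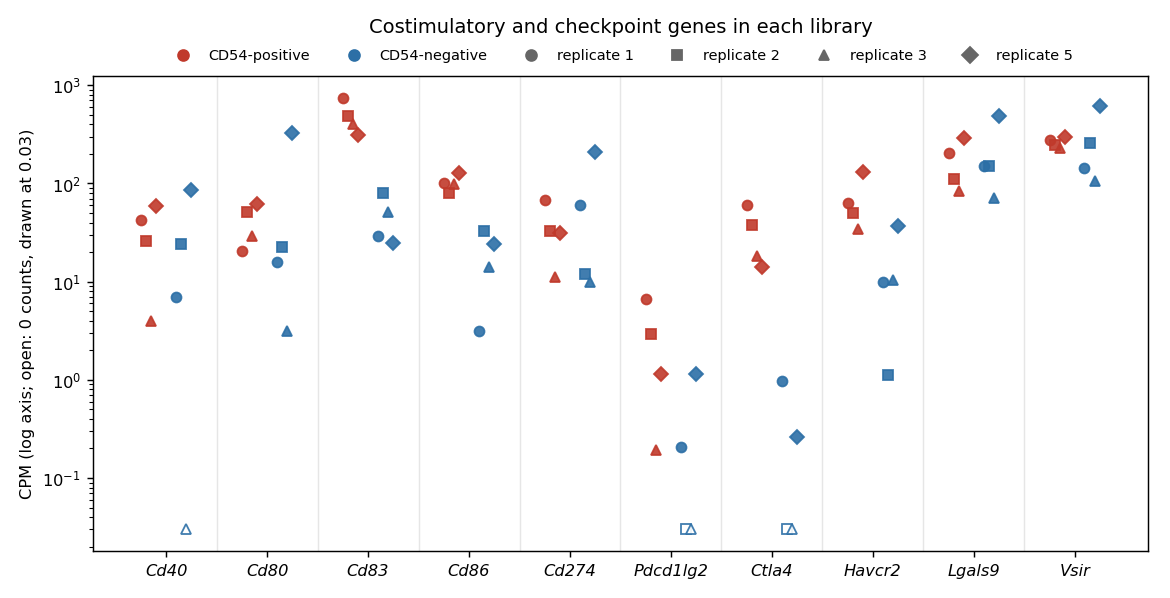
CPM (log axis) of the 10 genes in each library, CD54-positive in red on the left of each column and CD54-negative in blue on the right, with a symbol for each replicate number and open symbols for libraries with 0 counts. The red and blue points are separate for Cd83, Cd86 and Ctla4 and overlap for the other 7 genes.

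Cd83 (ENSMUSG00000015396) had the smallest p of the 10 genes. It stood at 741, 483, 403 and 311 CPM in CD54-positive replicates 1, 2, 3 and 5, and at 29.3, 79.1 and 51.4 CPM in CD54-negative replicates 1, 2 and 3 and 24.5 CPM in the library labelled CD54-negative replicate 5. The lowest CD54-positive library held several times the level of the highest CD54-negative one. The means were 485 ± 185 CPM in CD54-positive and 46.1 ± 25.0 CPM in CD54-negative libraries (SD, n = 4 each), a 10.5-fold difference and a log2 fold change of 3.39 ± 0.54 (SE; adjusted p = 0.0153 by edgeR). The call was lost without CD54-positive replicate 1 (log2 fold change 3.10; adjusted p = 0.0556 by edgeR) and without CD54-negative replicate 1 (3.23; adjusted p = 0.0617 by edgeR). It was kept without the library labelled CD54-negative replicate 5, at 3.19 ± 0.51.

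The B7 ligands for CD28 and CTLA-4 are Cd86 and Cd80, whose ratio, given below, did not differ between the fractions past the threshold. Cd86 (ENSMUSG00000022901) stood at 100.2, 80.2, 97.6 and 128 CPM in CD54-positive replicates 1, 2, 3 and 5, and at 3.12, 32.7 and 14.2 CPM in CD54-negative replicates 1, 2 and 3 and 23.9 CPM in the library labelled CD54-negative replicate 5. The groups did not overlap, and the CD54-positive libraries lay within a narrow range of each other. The means were 102 ± 20.0 CPM in CD54-positive and 18.5 ± 12.7 CPM in CD54-negative libraries (SD, n = 4 each). The log2 fold change of 2.46 ± 0.64 was not past the threshold (SE; adjusted p = 0.0835 by edgeR), although it was past it with DESeq2 (2.38; adjusted p = 0.00684) and limma-voom (3.06; adjusted p = 0.0227). It was 2.61 without the library labelled CD54-negative replicate 5 (adjusted p = 0.0594 by edgeR).

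Cd80 (ENSMUSG00000075122) stood at 20.3, 51.3, 29.0 and 61.2 CPM in CD54-positive replicates 1, 2, 3 and 5, and at 15.8, 22.7 and 3.14 CPM in CD54-negative replicates 1, 2 and 3. The library labelled CD54-negative replicate 5 held 328 CPM of Cd80, above all others, and the groups overlapped. The log2 fold change was -1.19 ± 1.09 with all libraries (SE; adjusted p = 0.618 by edgeR) and 1.54 ± 0.72 without the library labelled CD54-negative replicate 5 (adjusted p = 0.245 by edgeR), with neither past the threshold. Per length, the ratio of Cd86 to Cd80 was 7.42, 2.35, 5.07 and 3.15 in CD54-positive replicates 1, 2, 3 and 5. It was 0.298, 2.17 and 6.78 in CD54-negative replicates 1, 2 and 3 and 0.11 in the library labelled CD54-negative replicate 5. This ratio, looked at after the values were seen, did not differ past the threshold (difference in mean log2 ratio 2.29, two-sided exact permutation test over 70 assignments, p = 0.171, n = 4 each; adjusted p = 0.171 over 2 ratios). Leaving out 1 library gave differences from 1.32, without the library labelled CD54-negative replicate 5 (exact permutation test, p = 0.343), to 3.30, without CD54-negative replicate 3 (exact permutation test, p = 0.0286), and p was 0.171 or more in the 7 settings other than the last.

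Cd40 (ENSMUSG00000017652), the receptor for CD40 ligand, varied widely within both fractions. It stood at 42.1, 26.0, 4.01 and 59.2 CPM in CD54-positive replicates 1, 2, 3 and 5, and at 6.91, 24.2 and 0 CPM in CD54-negative replicates 1, 2 and 3. The library labelled CD54-negative replicate 5 held 85.0 CPM, the highest of the 8, and replicate 3 was the lowest library of both fractions. A count of 0 in CD54-negative replicate 3 allows up to 0.16 CPM. The log2 fold change was 0.18 ± 1.33 (SE; adjusted p = 0.959 by edgeR) and 1.65 ± 1.37 without the library labelled CD54-negative replicate 5 (adjusted p = 0.54 by edgeR).

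Of the 2 ligands of PD-1, PD-L1 was detected in every library and PD-L2 in all but CD54-negative replicates 2 and 3. Cd274 (ENSMUSG00000016496) stood at 68.1, 32.5, 11.1 and 31.6 CPM in CD54-positive replicates 1, 2, 3 and 5, and at 60.0, 12.0 and 10.01 CPM in CD54-negative replicates 1, 2 and 3. The library labelled CD54-negative replicate 5 held 209 CPM, above every CD54-positive library. The groups overlapped, and the log2 fold change was -1.02 ± 0.91 (SE; adjusted p = 0.604 by edgeR), against 0.38 ± 0.77 without the library labelled CD54-negative replicate 5 (adjusted p = 0.83 by edgeR). Pdcd1lg2 (ENSMUSG00000016498) stood at 6.60, 2.90, 0.193 and 1.16 CPM in CD54-positive replicates 1, 2, 3 and 5, and at 0.205, 0 and 0 CPM in CD54-negative replicates 1, 2 and 3 and 1.14 CPM in the library labelled CD54-negative replicate 5. Behind these values were 139, 72, 4 and 21 counts in CD54-positive replicates 1, 2, 3 and 5, and 4, 0, 0 and 13 counts in the libraries labelled CD54-negative 1, 2, 3 and 5. It was higher in CD54-positive in all 4 same-numbered pairs, by only 4 counts against 0 for number 3 and 1.16 against 1.14 CPM for number 5. Its log2 fold change of 3.04 ± 1.65 was not past the threshold (SE; adjusted p = 0.377 by edgeR), nor was the 5.15 ± 1.89 without the library labelled CD54-negative replicate 5 (adjusted p = 0.145 by edgeR).

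Ctla4 (ENSMUSG00000026011), the inhibitory receptor of T cells for CD80 and CD86, had the largest fold change of the 10 genes. It stood at 59.7, 37.9, 18.3 and 14.2 CPM in CD54-positive replicates 1, 2, 3 and 5, and at 0.973, 0 and 0 CPM in CD54-negative replicates 1, 2 and 3 and 0.263 CPM in the library labelled CD54-negative replicate 5. The fractions were far apart, and the counts of 0 in CD54-negative replicates 2 and 3 allow up to 0.178 and 0.16 CPM. The means were 32.5 ± 20.9 CPM in CD54-positive and 0.309 ± 0.46 CPM in CD54-negative libraries (SD, n = 4 each), with a log2 fold change of 6.67 ± 1.37 (SE; adjusted p = 0.041 by edgeR). The fold change rests on few counts in the CD54-negative libraries. The call was lost when any of 6 libraries was left out, all but CD54-negative replicate 3 and the library labelled CD54-negative replicate 5 (adjusted p from 0.0521 to 0.135 by edgeR; log2 fold change from 6.20 to 8.66). It was 6.59 without the library labelled CD54-negative replicate 5 (adjusted p = 0.0396 by edgeR).

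The T cell marker sum, like Ctla4, was higher in CD54-positive libraries. The sum was 132, 426, 78.5 and 199 CPM in CD54-positive replicates 1, 2, 3 and 5. It was 4.51, 62.6 and 11.4 CPM in CD54-negative replicates 1, 2 and 3 and 4.21 CPM in the library labelled CD54-negative replicate 5. In both fractions the sum was highest in replicate 2 and Ctla4 in replicate 1. The order of Ctla4 in the libraries labelled CD54-negative 1, 2, 3 and 5 rests on 19, 0, 0 and 3 counts. Of 10 tested T cell markers 1 was called higher, Cd4, which marks helper T cells (adjusted p = 0.0451 by edgeR), while DESeq2 called 6 and limma-voom 2. The edgeR call was lost when any library but CD54-negative replicate 2 or the library labelled CD54-negative replicate 5 was left out. None of the 12 markers was at 0 in a CD54-positive library, but Cd3e was below the floor in CD54-positive replicate 1 (0.0475 against 0.143 CPM). In TPM, a level that corrects for gene length, the 12 markers ran from 0.193 (Cd3e) to 65.9 (Trac) in CD54-positive replicate 1, where Ctla4 stood at 47.3 TPM. In CD54-positive replicate 2 they ran from 2.60 (Foxp3) to 327 TPM (Lck), with Ctla4 at 35.7 TPM. Foxp3, the factor of regulatory T cells, stood at 1.82, 2.60, 2.70 and 5.89 TPM in CD54-positive replicates 1, 2, 3 and 5, and at 0.461, 0.213 and 0.192 TPM in CD54-negative replicates 1, 2 and 3 and 0.117 TPM in the library labelled CD54-negative replicate 5. The part of T cells in the Ctla4 values was not tested.

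Havcr2 (ENSMUSG00000020399), which encodes TIM-3, stood at 62.6, 50.03, 34.7 and 131.3 CPM in CD54-positive replicates 1, 2, 3 and 5, and at 9.94, 1.13 and 10.5 CPM in CD54-negative replicates 1, 2 and 3. The library labelled CD54-negative replicate 5 held 37.3 CPM, and it alone reached into the range of the CD54-positive libraries. The means were 69.7 ± 42.7 CPM in CD54-positive and 14.7 ± 15.6 CPM in CD54-negative libraries (SD, n = 4 each). The log2 fold change of 2.25 ± 0.86 was not past the threshold (SE; adjusted p = 0.219 by edgeR), while without the library labelled CD54-negative replicate 5 it was 3.27 ± 0.81 and past it (adjusted p = 0.0498 by edgeR). It was also past it with limma-voom on all libraries (3.48; adjusted p = 0.0364).

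Lgals9 (ENSMUSG00000001123), which encodes the TIM-3 ligand galectin-9, stood at 206, 111, 83.1 and 290.1 CPM in CD54-positive replicates 1, 2, 3 and 5, and at 151, 151 and 71.5 CPM in CD54-negative replicates 1, 2 and 3 and 490.1 CPM in the library labelled CD54-negative replicate 5. Its promoter, shown above, carried the interferon response element core. The groups overlapped fully, with a log2 fold change of -0.32 ± 0.62 (SE; adjusted p = 0.834 by edgeR) that was 0.01 with library sizes only and 0.46 without the library labelled CD54-negative replicate 5. Per length, the ratio of Havcr2 to Lgals9 was 0.159, 0.235, 0.219 and 0.237 in CD54-positive replicates 1, 2, 3 and 5. It was 0.0345, 0.0039 and 0.077 in CD54-negative replicates 1, 2 and 3 and 0.0398 in the library labelled CD54-negative replicate 5. All 4 CD54-positive libraries were above all 4 CD54-negative ones, a difference of 3.05 in the mean log2 ratio (two-sided exact permutation test, p = 0.0286, the smallest that 4 against 4 can give, n = 4 each). The adjusted p over the 2 ratios examined was 0.0572, and both ratios were chosen after the values were seen. Leaving out any 1 CD54-positive library gave p = 0.0571 (exact permutation test). The difference was 2.15 without CD54-negative replicate 2, which had 19 counts of Havcr2, and 3.27 without the library labelled CD54-negative replicate 5.

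Vsir (ENSMUSG00000020101), which encodes VISTA, was the most even of the 10 genes in the CD54-positive fraction. It stood at 278, 246, 227 and 296 CPM in CD54-positive replicates 1, 2, 3 and 5, and at 143, 258 and 106 CPM in CD54-negative replicates 1, 2 and 3 and 610.3 CPM in the library labelled CD54-negative replicate 5. The CD54-positive values all lay inside the range of the CD54-negative ones. The log2 fold change was -0.09 ± 0.55 (SE; adjusted p = 0.95 by edgeR), turned to 0.05 with upper-quartile scaling and 0.26 with library sizes only, and was 0.63 ± 0.40 without the library labelled CD54-negative replicate 5 (adjusted p = 0.402 by edgeR).

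**Figure D3:**
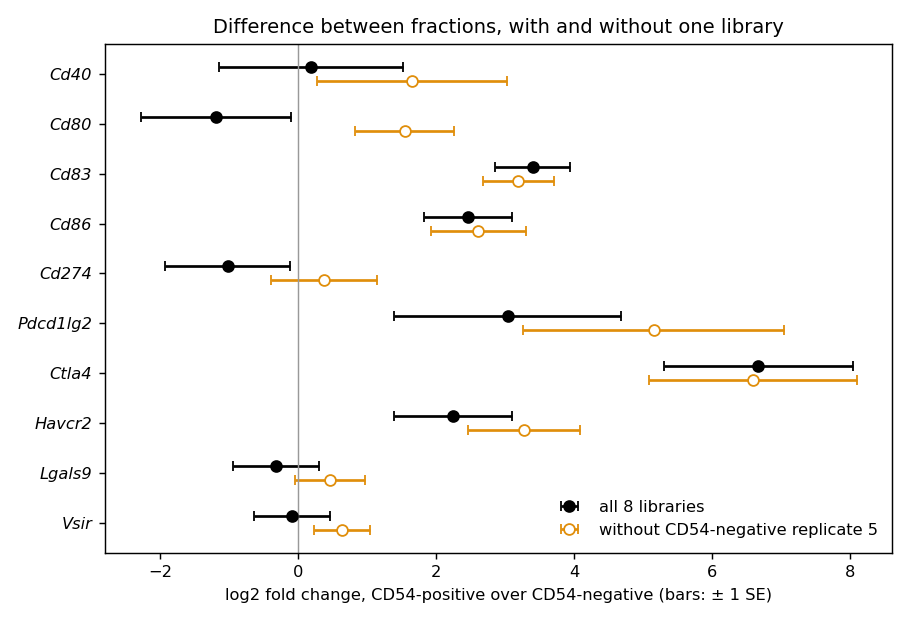
Log2 fold change of CD54-positive over CD54-negative with bars of 1 SE for the 10 genes, from all 8 libraries (filled black) and without the library labelled CD54-negative replicate 5 (open orange). Leaving out that library moves Cd80, Cd274, Lgals9 and Vsir from negative to positive values, none past the threshold, and leaves Cd83, Cd86 and Ctla4 close to where they were.

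The library labelled CD54-negative replicate 5 was the highest of all 8 for 5 of the genes, Cd40, Cd80, Cd274, Lgals9 and Vsir, as it was for 21.1% of all genes tested. These 5 were among those that showed no difference past the threshold. In the same library Icam1 was also the highest of the 8 in CPM, though not in TPM. Its neutrophil marker sum was 30995 CPM, and its macrophage marker sum was 1135 CPM, below every CD54-positive library. The part of this library's composition in these values was not tested.

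The order of the levels per length differed between the fractions. In CD54-positive libraries Cd83 led with 232 to 543 TPM, above the ranges of all the others except Lgals9. It was followed by Vsir (164 to 182 TPM) and Lgals9 (115 to 302 TPM), which overlapped each other. Cd86 came next with 69.5 to 96.1 TPM, below both and overlapping narrowly with Havcr2 (25.1 to 71.6 TPM). Ctla4 (11.5 to 47.3 TPM), Cd40 (3.96 to 44.2 TPM), Cd80 (9.85 to 30.2 TPM) and Cd274 (6.01 to 27.3 TPM) overlapped one another. Pdcd1lg2 had the lowest median, at 0.244 to 6.17 TPM, and overlapped with Cd40 and Cd274. In CD54-negative libraries Lgals9 (81.2 to 432 TPM) and Vsir (69.4 to 311 TPM) led and overlapped. Cd83 came next at 15.5 to 67.1 TPM, its range overlapping those of Cd274, Cd86, Cd40, Cd80 and Havcr2. The lowest there were Pdcd1lg2, at 0.918 TPM or less, and Ctla4, at 0.881 TPM or less. Without the library labelled CD54-negative replicate 5, Lgals9, Vsir and Cd83 were still the first by median in that fraction, followed by Cd86 and Cd80, and Cd274 had a median of 5.58 TPM against 16.5 TPM with it.

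**Figure D4:**
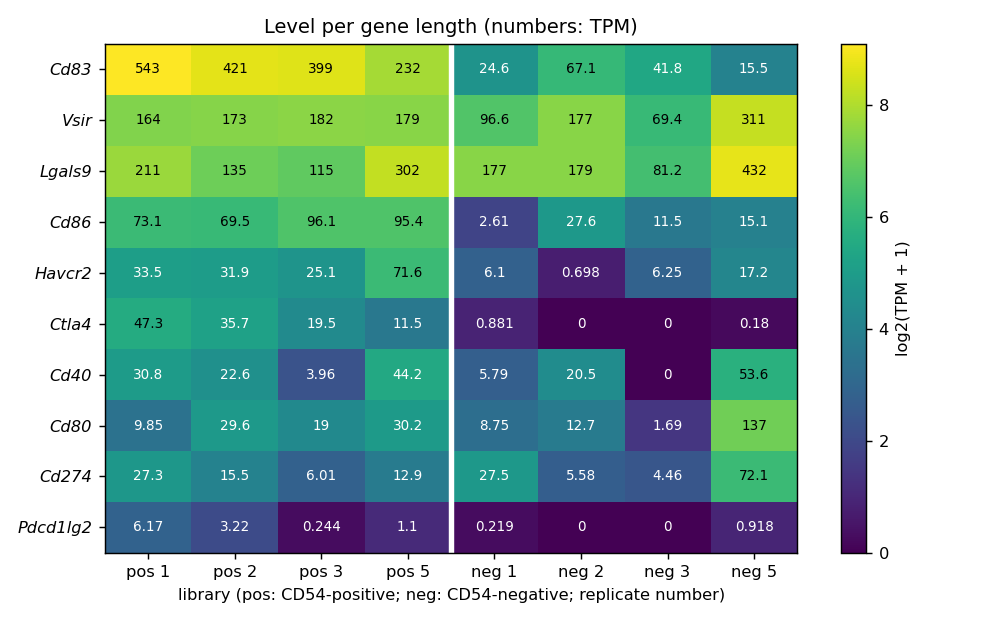
Level per gene length of the 10 genes (rows, ordered by their median in CD54-positive libraries) in the 4 CD54-positive and 4 CD54-negative libraries (columns), with colour for log2(TPM + 1) and the TPM written in each cell. Cd83 is the top row in the CD54-positive columns, while Lgals9 and Vsir carry the highest values in the CD54-negative columns.

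Likeness of pattern was measured as the root mean square difference of log2 CPM over the 8 libraries after each gene was centred on its own mean, so that smaller is more alike. Among the 10 genes the closest pair was Lgals9 and Vsir at 0.49, followed by Cd274 and Lgals9 at 0.87 and by Cd83 and Cd86 at 0.96. Without the library labelled CD54-negative replicate 5 the distances of these pairs were 0.52, 0.82 and 0.70. Neighbours were sought among the tested genes after those with symbols of predicted genes or clones were left out. Closest to Cd83 were Bco2, which encodes a carotenoid-cleaving enzyme, at 0.22, and Ms4a6b, of the MS4A membrane protein family, at 0.30. Cep85, which encodes a centrosomal protein, followed at 0.35, while the median over the genes searched was 2.04. Those closest to Ctla4 were Il2ra, a subunit of the receptor for interleukin-2, at 0.71 and Tusc1 at 0.93. Cd207, which encodes the lectin langerin of Langerhans cells and some dendritic cells, followed at 0.97, with a median of 3.65 over the genes searched. Without that library Bco2 and Il2ra were still the nearest, at 0.15 and 0.76, and the other 4 were at 0.32 to 1.01. The 2 genes differ strongly between the fractions, so any gene that does likewise comes out as near.

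The other genes of these pathways were read from 4 lists of 68 genes, of which 55 were tested. Of these 55, 3 were higher in CD54-positive libraries, Pdcd1, Cd96 and Cd48, and none was lower (edgeR adjusted p under 0.05; 12 higher and 5 lower at an unadjusted p under 0.05). Among all genes tested 1.22% were higher and 0.273% lower at the adjusted threshold, and 7.96% higher and 8.96% lower at the unadjusted one. Pdcd1 and Cd96 had a single count in all CD54-negative libraries together and passed the filter on low counts through the CD54-positive ones, so the count of 3 supports nothing by itself. DESeq2 called 2 of the 55 lower and limma-voom 1.

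In the B7 and CD28 family 1 of 8 tested genes rose, with a median log2 fold change of 2.60. This was Pdcd1, which encodes PD-1, the receptor for PD-L1 and PD-L2. It stood at 4.42, 6.57, 3.33 and 2.04 CPM in CD54-positive replicates 1, 2, 3 and 5, and in CD54-negative libraries a single count was found in replicate 2 and none in the others. The 362 counts in CD54-positive against 1 in CD54-negative libraries correspond to a ratio of 285 (exact binomial interval for counting error, 95%, 50.7 to 11300; adjusted p = 0.033 by edgeR), and the call was lost when any library but the one labelled CD54-negative replicate 5 was left out (adjusted p from 0.0671 to 0.107 by edgeR). Icos, an activating receptor of T cells (log2 fold change 5.51 ± 1.44; adjusted p = 0.0841 by edgeR), and Cd28 (3.68 ± 1.55; adjusted p = 0.259 by edgeR) were not past the threshold. Icos was past it with DESeq2 (adjusted p = 7.82e-05), limma-voom (adjusted p = 0.0449) and, by edgeR, with no filter (adjusted p = 0.0273). Pdcd1, Icos and Cd28 are expressed by T cells, whose marker sums are given above.

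Among 10 tested genes of TNF superfamily costimulation, none was past the threshold in either direction by edgeR (3 higher and 1 lower at an unadjusted p under 0.05; 1 higher and 1 lower by DESeq2, 1 higher by limma-voom). Cd40lg, the ligand of CD40, was among the 4 genes of that list that were too low to be tested. Tnfrsf9, the activation receptor 4-1BB, stood at 28.3, 29.4, 21.9 and 32.9 CPM in CD54-positive replicates 1, 2, 3 and 5, and at 1.08, 1.60 and 0.905 CPM in CD54-negative replicates 1, 2 and 3 and 13.5 CPM in the library labelled CD54-negative replicate 5. The groups did not overlap, and the log2 fold change of 2.72 ± 0.93 (SE; adjusted p = 0.176 by edgeR) was 4.55 and past the threshold without the library labelled CD54-negative replicate 5 (adjusted p = 0.0116 by edgeR). Cd27, a costimulatory receptor of lymphocytes, and Tnfsf15, the cytokine TL1A, had values of 4.20 ± 1.77 and 3.84 ± 1.66 that were not past the threshold (adjusted p = 0.26 and 0.271 by edgeR).

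Of 13 tested genes among the other inhibitory receptors and ligands 2 rose and 0 fell by edgeR, with a median of 0.70 over the list. At an unadjusted p under 0.05, 4 were higher and 2 lower by edgeR. DESeq2 called 3 higher and 1 lower, and limma-voom 4 higher and 1 lower. Cd48, a ligand of the SLAM family receptor 2B4 on many leukocytes, stood at 351, 192, 135 and 159 CPM in CD54-positive replicates 1, 2, 3 and 5, and at 20.8, 27.9 and 16.7 CPM in CD54-negative replicates 1, 2 and 3 and 9.39 CPM in the library labelled CD54-negative replicate 5. The fractions were clearly separate, with a log2 fold change of 3.48 ± 0.52 (SE; adjusted p = 0.0131 by edgeR), and the call was lost without CD54-negative replicate 1 (3.54; adjusted p = 0.0521 by edgeR). Cd96, a receptor of T and NK cells, had 1212 counts in CD54-positive and 1 in CD54-negative libraries, a ratio of 953 (exact binomial interval for counting error, 95%, 171 to 37700; adjusted p = 0.0193 by edgeR). Its call was lost when CD54-positive replicate 2 or 5 or CD54-negative replicate 1 or 2 was left out (adjusted p from 0.0606 to 0.0867 by edgeR). Cd226, an activating receptor that shares ligands with Cd96, was not past the threshold (3.30 ± 1.56; adjusted p = 0.313 by edgeR). Ceacam1 went the other way, at -2.19 ± 0.53, also not past it (adjusted p = 0.0702 by edgeR). Its CD54-positive libraries, at 9.72 to 38.6 CPM, were all below the CD54-negative ones, at 77.6 to 130 CPM.

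The 24 genes of signalling and trafficking partners had a median log2 fold change of 0.03 and none was past the threshold in either direction by edgeR, DESeq2 or limma-voom (1 higher and 2 lower by edgeR at an unadjusted p under 0.05). The largest values were those of Marchf1, the ubiquitin ligase that removes CD86 from the cell surface (1.54 ± 0.70; adjusted p = 0.295 by edgeR), Jak2, a kinase of the interferon-gamma receptor (-1.43 ± 0.59; adjusted p = 0.246 by edgeR), and Irf1, a transcription factor that acts on the Cd274 promoter (-1.25 ± 0.50; adjusted p = 0.235 by edgeR).

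**Figure D5:**
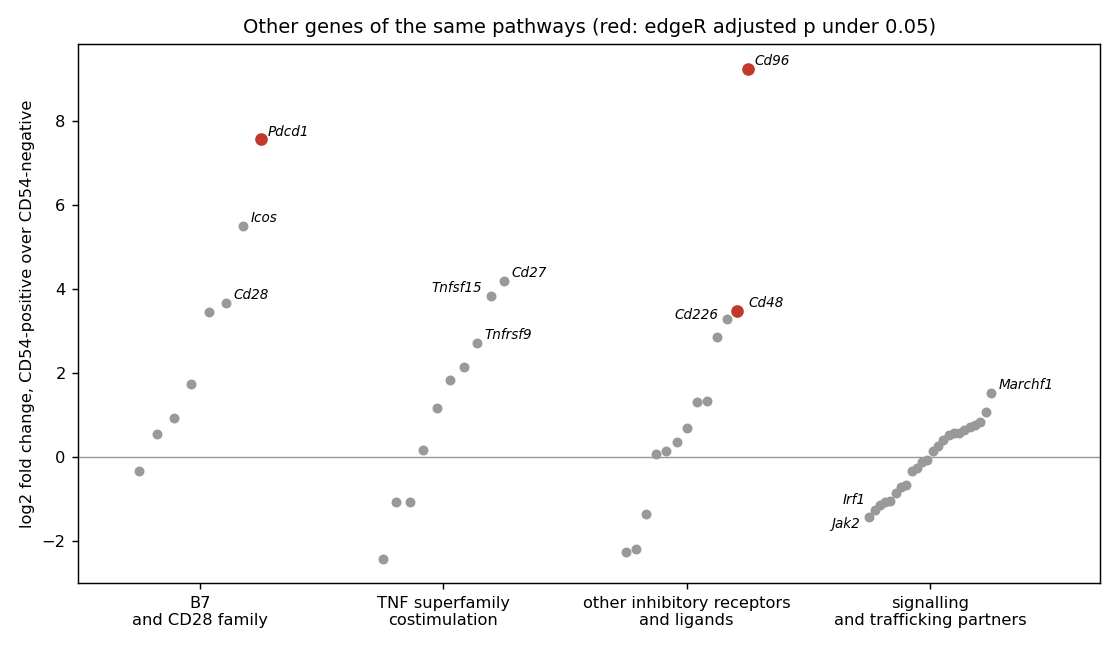
Log2 fold change of CD54-positive over CD54-negative for the 55 tested genes of 4 pathway lists (columns, genes sorted within each), with genes past the edgeR threshold in red. Pdcd1, Cd96 and Cd48 are the 3 red points, and the signalling and trafficking partners stay between -1.43 and 1.54.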

How the data were processed

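The submitters' processing notes name Trim Galore 0.6.6 (a read trimmer), Salmon 1.9.0 (a transcript quantifier) and the build GRCm39 (mm39). How counts were summed to genes was not given in the sources used here. Per gene, the authors deposited estimated counts, not scaled between libraries, and a length. The 25669 rows were reduced to 25572 unique identifiers and counts were rounded. Genes were filtered with filterByExpr (13575 kept), scaled by TMM and compared with edgeR 4.0.16 in R 4.3.3 (quasi-likelihood test, group as the only term, Benjamini-Hochberg adjustment over all genes tested, threshold 0.05). The SE is the size of the log2 fold change divided by the square root of F. CPM uses TMM-scaled library sizes, TPM the counts and the length column. Sums of marker lists are of CPM. DESeq2 1.42.0 and limma 3.58.1 were alternatives.

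The genes and lists were chosen with earlier results of these data known. Named genes are the 10 members, Icam1, the genes of each pathway list past the threshold (filled up to 3 by size of the log2 fold change), the 3 nearest in pattern to each member past the threshold, and markers needed to describe a list. A few are described beyond this rule. Nothing says that libraries came from separate mice, so p-values measure only the spread between these libraries, which may be technical. The labels do not say that a replicate number marks a shared mouse. With 150 pg of RNA and no molecular identifiers named, counts need not be independent molecules, so floors and intervals cover counting error only. Strandedness is not given. Promoters are of GRCm38.p6 and no coordinate of the files' build is given.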

Additional observations from a re-analysis of the deposited data

Results flagged for a closer look

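Within the 4 CD54-negative libraries, Cd80 (ENSMUSG00000075122) stood at 328 CPM in the library labelled CD54-negative replicate 5, and the next highest library held 22.7 CPM, a gap of 0.94 of the whole range. Icam1 stood at 138 CPM in the same library, with 18.7 CPM in the next highest, a gap of 0.892 of the range. Both gaps exceed Dixon's critical value for 4 samples. They came from 24 groups searched (the 10 genes, Icam1 and the library totals in both fractions), of which chance flags about 5%.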

How the results depend on the processing

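The 166 higher and 37 lower genes became 258 higher with library sizes only, 584 and 649 with DESeq2, 460 and 349 with limma-voom, and 280 and 261 with the replicate block. Lower genes numbered 120 with no filter, 61 with at least 10 CPM in at least 4 libraries and 190 without both libraries numbered 5. Leaving out 1 library gave 4 to 337 higher and 0 to 241 lower, which also leaves fewer libraries to test. Of the 10 genes, 4 were higher with limma-voom and 0 to 3 with 1 library left out, 0 without CD54-positive replicate 1 or CD54-negative replicate 1. Of the pathway genes 6 were higher and 2 lower with DESeq2, 7 and 1 with limma-voom, 5 and 1 with the replicate block, 1 higher with the 10 CPM filter, 6 higher without both libraries numbered 5 and 0 to 6 with 1 library left out.

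Directions turned for 5 genes, none past the threshold. Cd40 ran from -0.23 to 1.65 (log2) with 1 library left out. Cd80 ran from -1.59 to 1.54 there and was 1.26 with limma-voom, 0.64 with the replicate block and 1.29 without both libraries numbered 5. Cd274 ran from -1.52 to 0.38 and was 0.086 with limma-voom and 0.44 without both libraries. Lgals9 ran from -0.65 to 0.46 and was 0.0071 with library sizes only and 0.11 without both. Vsir ran from -0.36 to 0.63 and was 0.045 with upper-quartile scaling, 0.26 with library sizes only, 0.41 with limma-voom, 0.25 with the replicate block and 0.58 without both. The causes were not tested. Leaving out a library for the 2 ratios, the levels and the likeness was added after seeing the data. The median of all genes was -0.07 with TMM, 0.06 with upper-quartile scaling and 0.17 with library sizes only.

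Deviations of same-numbered libraries from their group means correlated at -0.15, 0.12, 0.15 and 0.38 for numbers 1, 2, 3 and 5. CD54-negative replicates 2, 3 and 5 matched their own number best, and replicate 1 did not. CD54-positive replicates 2 and 5 matched theirs best, and replicates 1 and 3 did not. With so few libraries these correlations cannot settle whether the numbers are pairs. The main test used the group alone, and the replicate block is given as an alternative. With the replicate block Icos (6.66; adjusted p = 0.0235 by edgeR) and Cd86 (2.82; adjusted p = 0.0399 by edgeR) were past the threshold. Cd86 was past it too with library sizes only (2.73; adjusted p = 0.0489 by edgeR) and no filter (2.48; adjusted p = 0.0379 by edgeR). Pdcd1lg2 was not tested with the 10 CPM filter or without both libraries numbered 5. Depth limits Pdcd1lg2, Ctla4, Pdcd1 and Cd96, which were at or near 0 in CD54-negative libraries.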
